A study of Saccharomyces cerevisiae with 2 samples.

Results

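GAL2, GAL3, GAL4, GAL80, PGM2 and GCY1 belong to the galactose regulon of *Saccharomyces cerevisiae* but lie apart from each other and from the GAL1, GAL10 and GAL7 cluster. Their chromatin contacts were read from Genome Conformation Capture (GCC) counts of MspI restriction fragments. A fragment was taken as a member where the annotation in the tables names 1 of the 6 genes as a whole word, either as an overlapping gene or as the nearest neighbour. The rule used no measured value and found 30 of the 13639 nuclear fragments seen in the tables. GCC cross-links chromatin, cuts it with MspI, ligates the ends and counts the sequences that join a pair of fragments.

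The cells were of strain BY4741 (a haploid *MATa* strain with the auxotrophic alleles his3Δ1, leu2Δ0, met15Δ0 and ura3Δ0), which both groups share. They were grown at 30 °C in synthetic complete medium with glycerol lactate or with galactose (2% w/v) and harvested in exponential growth at an OD600 of 0.6. The sources used here do not give the same glycerol concentration for the glycerol lactate medium, and 1 of them adds a trace of glucose to it. Each condition has 1 library, which combines the sequences of 2 biological replicates. No spread between replicates can therefore be given, intervals cover counting error only, and each test compares these 2 libraries, not the conditions.

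Gal4 is the activator of the regulon and binds upstream activating sequences of its target genes. Without galactose the inhibitor Gal80 covers its activation domain, and with galactose the sensor Gal3, a catalytically inactive relative of the galactokinase Gal1, binds Gal80 and relieves the inhibition. Gal2 is the galactose permease, Pgm2 the major phosphoglucomutase, which joins the Leloir pathway to glycolysis, and Gcy1 an aldo-keto reductase with glycerol dehydrogenase activity whose gene carries a Gal4 site. Glycerol and lactate neither induce nor strongly repress the target genes of Gal4, and galactose induces them. GAL4 itself is expressed without galactose and repressed by glucose.

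After unique mapping the glycerol lactate library totalled 3221104 counts on 342659 pairs, and the galactose library 2338837 on 713131. Nuclear pairs of adjacent fragments took 73.8% and 53.0% of the counts, respectively, other pairs of the same chromosome 7.04% and 20.2%, pairs of different chromosomes 5.85% and 15.8%, and pairs of nuclear with mitochondrial fragments 2.66% and 1.14%. Because the 2 libraries differ in this composition, each value below is a share of the counts of its own kind. A ratio is the galactose share over the glycerol lactate share, with an exact 95% interval. Of the pairs between chromosomes, 90.7% in glycerol lactate and 93.9% in galactose held a single count.

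Coordinates are those of the S288C reference sequences used by the authors, counted from 1. GAL4 (YPL248C, minus strand of chromosome XVI, 79711 to 82356) had 3 fragments and GAL80 (YML051W, plus strand of chromosome XIII, 171594 to 172901) had 4. GAL3 (YDR009W, plus strand of chromosome IV, 463431 to 464993) had 5 fragments and lay 14.5 kb from its centromere, whereas the other 5 genes lay 97.1 to 474 kb from theirs. GAL2 (YLR081W, plus strand of chromosome XII, 290213 to 291937) had 7 fragments. PGM2 (YMR105C, minus strand of chromosome XIII, 475896 to 477605) had 4 fragments, and GCY1 (YOR120W, plus strand of chromosome XV, 551115 to 552053) had 7, of which 4 name it only as a neighbour. Member fragments measured 26 to 3402 bp with a median of 328.5 bp, against a median of 568 bp over all nuclear fragments. Each was therefore also set beside the 102 to 952 other nuclear fragments whose length lay within 10% of its own.

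The uncut or religated site between adjacent fragments gave most counts. The members held 6870 counts with adjacent fragments in glycerol lactate and 3360 in galactose, a ratio of 0.937 (0.899 to 0.977). None of the 6 genes differed by 2-fold between the libraries, and 0.0214% of 4681 named nuclear genes did (1 gene, lower in galactose). GCY1 had the lowest ratio of the 6, with 1272 counts in glycerol lactate and 563 in galactose (0.848, 0.767 to 0.937). GAL2 followed with 1607 and 748 counts (0.892, 0.817 to 0.973). The intervals of GAL80 (986 and 477 counts, 0.927), PGM2 (881 and 442, 0.961), GAL3 (1316 and 699, 1.02) and GAL4 (808 and 431, 1.02) included 1. The median over all named genes was 0.985, and 11.6% of them had a lower ratio than GCY1. Over the 3 fragments that overlap GCY1, without the 4 that name it as a neighbour, its ratio was 0.942 (0.822 to 1.08).

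**Figure D1:**
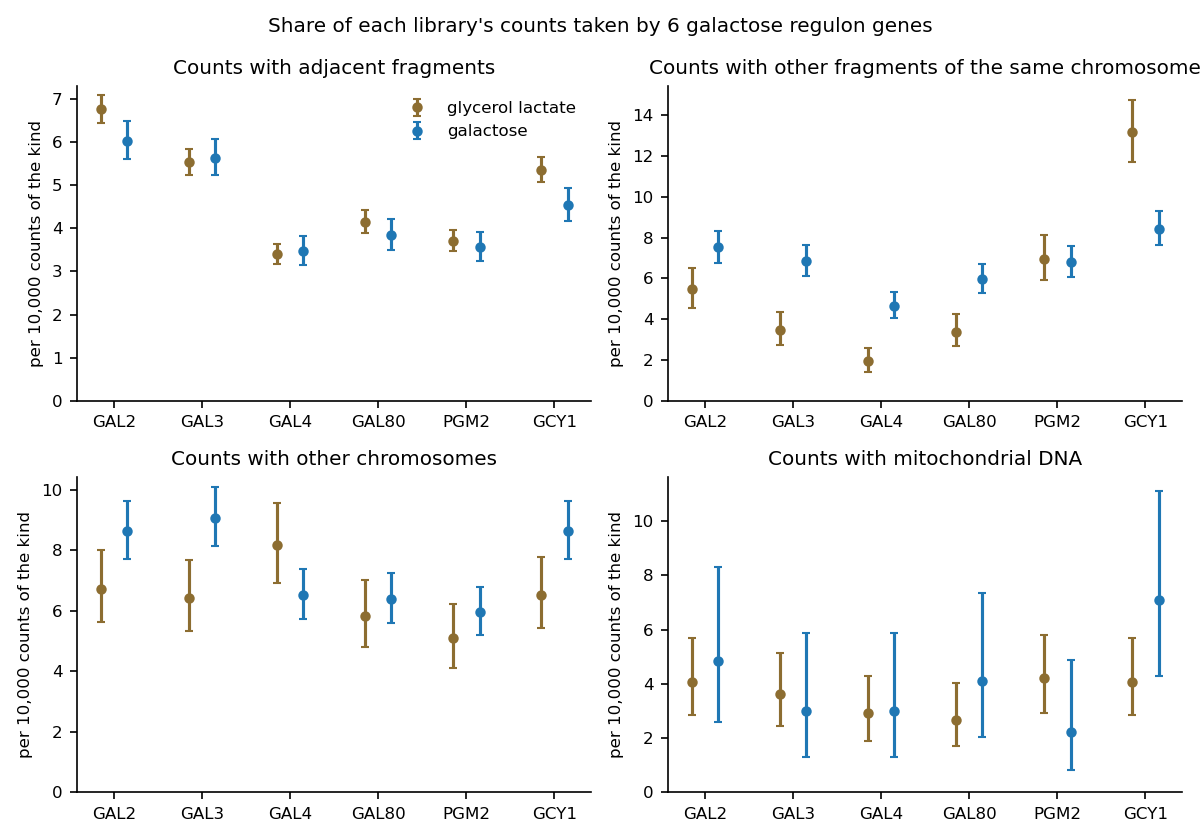
Counts of the 6 genes as a share of all counts of the same kind in the glycerol lactate and the galactose library, in 4 panels for counts with adjacent fragments, with other fragments of the same chromosome, with other chromosomes and with mitochondrial DNA. Bars are exact Poisson 95% intervals of the counts. GCY1 stands out in the panel of the same chromosome, with 299 of 226821 counts in glycerol lactate and 400 of 473529 in galactose, and the bars of the 2 libraries overlap for all 6 genes in the mitochondrial panel.

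The 6 genes held 36 such junctions, and 0 of them differed by 2-fold, against 0.492% of 12600 nuclear junctions (0.238% higher and 0.254% lower in galactose). The 2 lowest ratios lay upstream of GCY1. Its site at -109 bp, counted from the start codon, had 194 counts in glycerol lactate and 57 in galactose (0.563, 0.411 to 0.760), the lowest ratio among the 36. Its site at -381 bp had 127 and 38 counts (0.573, 0.388 to 0.830). The site between them, at -355 bp, had 122 and 54 counts (0.848, 0.604 to 1.18). Both sites inside the GCY1 coding sequence had ratios above 1 with intervals that include 1, from 149 and 90 counts (1.16) and from 144 and 87 counts (1.16). Among junctions whose shorter fragment had a like length, 0.751% had a lower ratio than the site at -109 bp, and 0 of 185 had a lower ratio than the site at -381 bp.

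Summed over these 3 upstream sites, GCY1 had 443 counts in glycerol lactate and 149 in galactose, a ratio of 0.645 (0.532 to 0.778). Of the 2628 genes with a site in the 800 bp before their start codon, 3.23% had a lower ratio, their median was 0.945, and 0.152% were lower by 2-fold. Sites upstream of genes were lower in general: over the 2243 nuclear sites within 800 bp of a start codon and outside coding sequences the median ratio was 0.925, against 0.988 over the 9452 sites in coding sequences. GCY1 also had a low site 1524 bp past the start codon, beyond its coding sequence, with 161 and 52 counts (0.619, 0.444 to 0.851), so that its low sites were not limited to the upstream side.

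**Figure D2:**
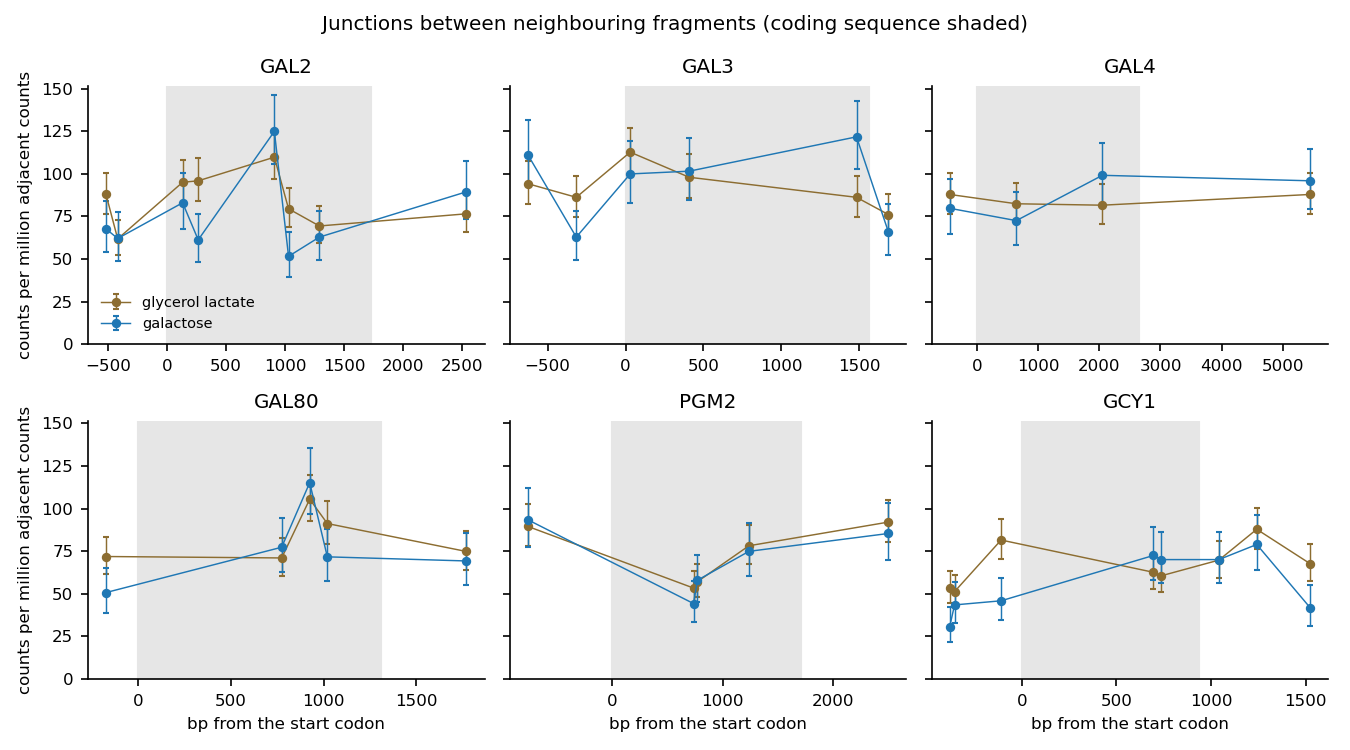
Adjacent counts at each MspI site of the 6 genes, scaled to the adjacent total of each library, against the distance of the site from the start codon in bp, with the coding sequence shaded and exact Poisson 95% intervals. In the GCY1 panel the galactose points lie below the glycerol lactate points at all 3 upstream sites (149 against 443 counts in sum) and close to them or above them in the coding sequence.

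GAL2 had 2 low sites inside its coding sequence. The site 265 bp past the start codon had 228 counts in glycerol lactate and 76 in galactose (0.639), and the site at 1030 bp had 189 and 64 (0.649). The site at 910 bp, between them, had 261 and 155 counts (1.14, 0.927 to 1.39), so that the low sites did not form 1 unbroken stretch. Of the junctions of like length, 3.76% had a lower ratio than the site at 265 bp and 4.47% than the site at 1030 bp.

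Among the regulators, the site of GAL80 at -173 bp had 171 and 63 counts (0.706), and the site of GAL3 at -316 bp had 205 and 78 (0.729). The GAL3 site 1482 bp into the gene had 205 and 151 counts (1.41), the only one of the 36 whose interval lay above 1. The intervals of 8 sites lay below 1, of which 3 belonged to GCY1 and 3 to GAL2, while 11.1% of the 12600 nuclear junctions had an interval below 1 and 11.8% had one above it. GAL4 had no such site, with ratios between 0.880 and 1.21 at its 4 junctions. The single upstream site of PGM2 had 213 and 116 counts (1.04). Over the 10 upstream sites of the 6 genes the ratio was 0.846 (0.778 to 0.920), with 7 of 10 below 1, against 0.981 (0.927 to 1.04) over the 18 sites in coding sequences. Of the 2243 nuclear sites upstream of a start codon and outside coding sequences, 62.1% were below 1, with a median of 0.925. The 3 upstream sites of GCY1, which are among the 10, had a ratio of 0.645. The GAL4 site at -453 bp and the PGM2 site at -763 bp, also among them, lie in coding sequences of other genes.

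For comparison, the adjacent-fragment ratios of other genes of galactose metabolism ran from 0.757 to 1.06, against 0.848 to 1.02 for the 6 members. The cluster genes GAL1, GAL10 and GAL7, which encode the galactokinase, the epimerase and the uridylyltransferase, had ratios of 0.920, 0.799 and 0.757, the last 2 below those of all 6 members, and none of the 3 differed by 2-fold. Over all 13 other genes examined, which also include PGM1 and UGP1, the Gal4 targets MTH1, PCL10 and FUR4, and the glucose repression genes MIG1, TUP1, CYC8, SNF1 and GAL83, the median was 0.920, with 5 of 13 above 1.

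Counts with non-adjacent fragments of the same chromosome ordered the 6 genes from GAL4, relatively richer in galactose, to GCY1, relatively poorer, and this order moved with pairs that span 1 very short fragment. GAL4 had 44 counts in glycerol lactate and 221 in galactose (2.41, 1.73 to 3.41), GAL3 79 and 325 (1.97, 1.54 to 2.55), GAL80 77 and 282 (1.75, 1.36 to 2.29) and GAL2 124 and 356 (1.38, 1.12 to 1.70). PGM2 had 158 and 322 counts (0.976, 0.804 to 1.19) and GCY1 299 and 400 (0.641, 0.550 to 0.747), whose direction turned with all mapped sequences (1.41, with a median over the named genes of 3.75). GAL4 alone passed 2-fold, upwards, as did 48.5% of 4683 named genes, whose median was 1.96. No member was lower by 2-fold, against 2.84% of genes.

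The strongest of these pairs joined the fragments on either side of a short one. At GCY1, 114 counts in glycerol lactate and 29 in galactose spanned the 26 bp fragment between RIO1 and the GCY1 promoter, and 102 and 40 spanned a 40 bp fragment in the coding sequence. At PGM2, 93 and 39 counts spanned a 36 bp fragment in the coding sequence, and at GAL80, 26 and 5 spanned one of 95 bp. Pairs across 1 fragment under 100 bp made up 72.2% of the GCY1 counts of this kind in glycerol lactate and 17.3% in galactose. Over all nuclear fragments they made up 54.5% and 10.4%. GAL3 and GAL4 had none.

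Without these pairs the 6 genes lay closer together. GCY1 then had 83 counts in glycerol lactate and 331 in galactose (0.970, 0.760 to 1.25), and PGM2 53 and 275 (1.26, 0.937 to 1.73). GAL80 had 51 and 277 counts (1.32), GAL4 44 and 221 (1.22), GAL3 79 and 325 (1.00) and GAL2 113 and 350 (0.753, 0.608 to 0.939). The median over 4683 genes was 1.18, and 8.15% of genes had a lower ratio than GAL2. None of the 6 then differed by 2-fold, against 4.87% of genes upwards and 1.73% downwards.

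By distance, 78.9% of the members' counts within chromosomes lay within 10 kb in glycerol lactate and 42.8% in galactose. Over all nuclear fragments these shares were 83.2% and 47.1%. Pairs 10 to 50 kb apart held 11.7% and 34.8% of the members' counts, against 8.65% and 33.1% over all nuclear fragments. GAL4 had the largest such share in galactose, 96 of 221 counts (43.4%), against 6 of 44 (13.6%) in glycerol lactate. Local contacts of GAL3 reached both sides of the gene. The strongest ones in galactose joined its own fragments (8 and 6 counts) and, with 6 counts, its coding sequence to SNQ2, a multidrug transporter gene downstream. In glycerol lactate 4 counts joined its upstream fragment to TRP1, a tryptophan biosynthesis gene on the other side. The same pairs had 2, 5 and 1 counts in glycerol lactate for the first 3, and 5 in galactose for the last. GAL4 was joined to the next fragments of its neighbour YPL247C by 2 counts in glycerol lactate and 6 in galactose in 1 pair, and by 4 and 5 counts in another. The first and last fragments of the GAL80 set were joined by 1 and 10 counts.

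**Figure D3:**
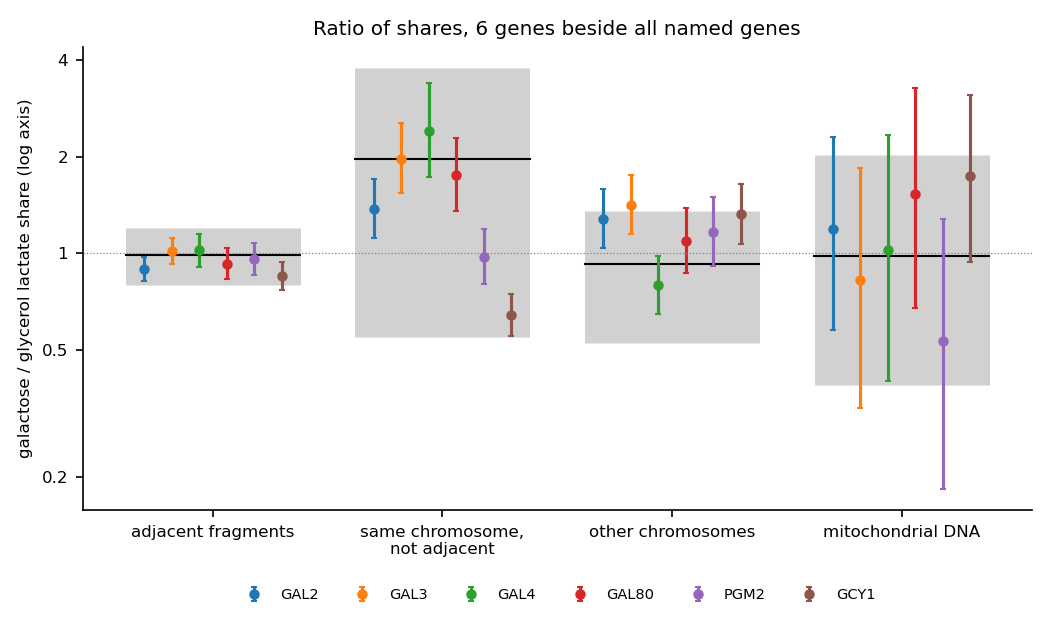
Ratio of the galactose to the glycerol lactate share (log axis) for the 6 genes and 4 kinds of count, with exact 95% intervals. Grey bands run from the 5th to the 95th percentile of all named nuclear genes and black lines mark their medians (0.985, 1.96, 0.928 and 0.979 from left to right). In the second group GCY1 and PGM2 lie lowest, and in the third GAL3 is the only gene whose ratio lies above the band.

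As shares of all between-chromosome counts, those of 5 of the 6 genes were higher in galactose than in glycerol lactate, as were those of 39.2% of the named genes. The members held 731 counts in glycerol lactate and 1670 in galactose, a ratio of 1.16 (1.07 to 1.27), against a median of 0.928 over 4697 named genes. GAL3 had 121 and 336 counts (1.41, 1.15 to 1.76), and 96.6% of genes had a lower ratio. Of these GAL3 counts, 23 and 144 had a partner within 50 kb of a centromere. The part of such partners in its ratio was not tested. GCY1 had 123 and 319 counts (1.32, 1.07 to 1.64), GAL2 127 and 319 (1.28, 1.04 to 1.58), PGM2 96 and 220 (1.17, 0.915 to 1.5) and GAL80 110 and 236 (1.09, 0.868 to 1.38). GAL4 had a ratio below 1 on this scale, with 154 and 241 counts (0.797, 0.649 to 0.982). Its fragment 76906 to 80307, with 597 of 3402 bp in the coding sequence, also names GYP5 and had a ratio of 0.570. Its fragments 80308 to 81717 and 81718 to 82809 had ratios of 1.06 and 0.980. The direction of the GAL4 ratio turned with the scale. The ratio of GAL4 was 1.46 in the table of all mapped sequences, 2.16 as a share of all library counts and 1.20 as a share of all counts without adjacent pairs, where the medians over the named genes were 1.42, 2.51 and 1.40. The interval of GCY1 included 1 with overlapping fragments only (1.13, 0.843 to 1.54), and that of GAL2 did with distinct pairs in place of counts (1.24, 0.995 to 1.54). None of the 6 differed by 2-fold, against 3.62% of genes (0.0426% higher and 3.58% lower).

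Of the 13 other pathway genes, 6 had between-chromosome ratios above 1, with a median of 0.994, and none passed 2-fold. GAL1 had 119 and 342 counts (1.46), while GAL83, a subunit of the Snf1 kinase, had the lowest ratio at 0.502.

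Fragment length moved with these ratios, and its part in them was not tested. Fragments of like length gave ratios of 1.30 for GCY1, 1.19 for GAL2, 1.18 for GAL3, 1.18 for GAL80, 1.04 for PGM2 and 0.808 for GAL4, which has the longest fragments. Divided by these, the ratios of the genes ranged from 0.929 for GAL80 to 1.20 for GAL3, and that of all members was 1.05. In level, GAL3 had 1.11 times the counts of fragments of like length in glycerol lactate and 1.33 times in galactose. GAL4 had 1.18 and 1.16 times, GAL80 1.28 and 1.19, GCY1 1.08 and 1.10, PGM2 0.922 and 1.04, and GAL2 0.883 and 0.953.

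All 30 fragments reached the minimum of 20 counts over both libraries and were tested with Fisher's exact test, with Benjamini-Hochberg adjustment over 12960 nuclear fragments. Of the 30, 3 were higher and 1 was lower in galactose at an adjusted p under 0.05, against 3.09% and 4.51% of all fragments (7.59% in either direction). Of these, 2 lay side by side in the PGM2 coding sequence. The fragment 476370 to 476834 had 14 counts in glycerol lactate and 72 in galactose (ratio 2.62, adjusted p = 0.0108, exact), and the 36 bp fragment beside it, 476835 to 476870, had 3 and 28 (4.76, adjusted p = 0.0486, exact). The next fragment of PGM2, 476871 to 478368, had 49 and 58 counts (0.603, adjusted p = 0.0889, exact). Of fragments of like length, 98.2% had a lower ratio than the first of the 3, 96.7% than the 36 bp fragment and 6.61% than the last. The median ratio of fragments as short as the 36 bp fragment was 1.58. With all mapped sequences the 36 bp fragment was also joined to a fragment of PGM1 by 19 counts in glycerol lactate and 8 in galactose, against 0 with unique mapping.

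The upstream fragment of GAL3, 462805 to 463115, had 14 counts in glycerol lactate and 66 in galactose (2.40, adjusted p = 0.0315, exact). The other 4 fragments of GAL3 had ratios of 1.22 to 1.38 and did not pass. The long fragment with the 3′ end of GAL4, 76906 to 80307, which also names GYP5, had 76 and 85 counts (0.570, adjusted p = 0.0123, exact). Fragments of its length had a median ratio of 0.652. A GAL2 fragment, 291244 to 291504, had 9 and 47 counts (2.66) and missed the threshold (adjusted p = 0.0547, exact). No fragment of GAL80 or GCY1 passed. At an unadjusted p under 0.05 there were 8 of 30 fragments, against 22.5% of all.

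**Figure D4:**
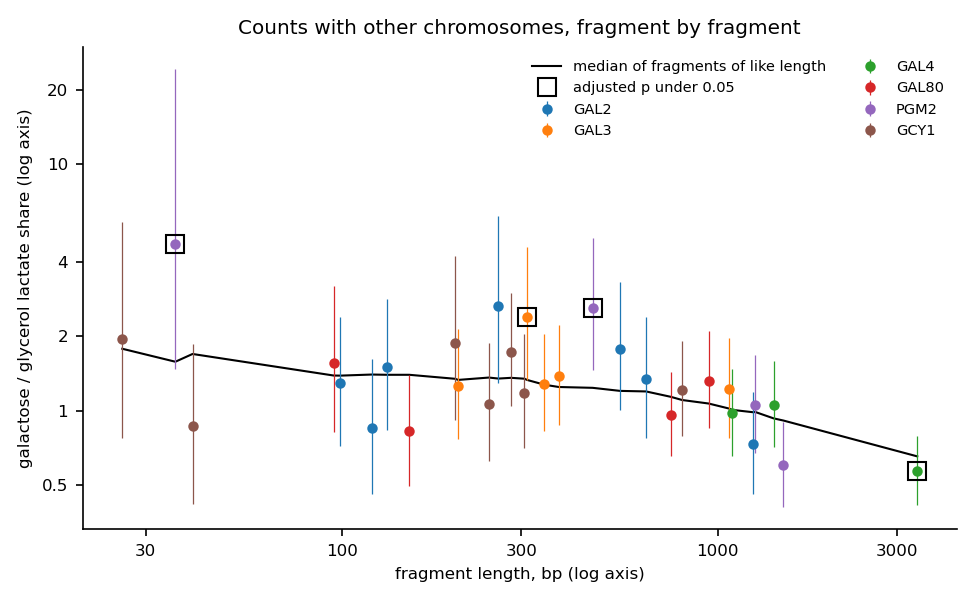
Ratio of the galactose to the glycerol lactate share of between-chromosome counts for each of the 30 member fragments, against fragment length (both axes log), with exact 95% intervals. The black line is the median of fragments of like length, which runs from 1.78 at 26 bp to 0.652 at 3402 bp, and squares mark the 4 fragments with an adjusted p under 0.05.

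GAL3, the gene nearest to a centromere, had the largest share of partners near the centromeres of other chromosomes. In glycerol lactate 23 of its 121 between-chromosome counts (19.0%, Wilson interval 13.0 to 26.9%) had a partner within 50 kb of a centromere. In galactose 144 of 336 had one (42.9%, 37.7 to 48.2%). Other fragments at a like distance from their own centromere gave 17.6% and 42.3%, so GAL3 lay within its counting interval of them in both libraries. The remaining genes had 4.98% to 16.9% of such partners in galactose. GAL4, the farthest from its centromere, had the lowest share, 12 of 241 counts (4.98%, 2.87 to 8.50%), against 14 of 154 (9.09%, 5.49 to 14.7%) in glycerol lactate. Other fragments at a like distance gave 7.40% in galactose and 12.1% in glycerol lactate, both within the intervals of GAL4. Over all nuclear fragments the shares were 13.9% and 15.7%. Partners within 50 kb of a chromosome end took 11.4% of the members' counts in glycerol lactate and 9.40% in galactose, against 11.9% and 11.6% over all.

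**Figure D5:**
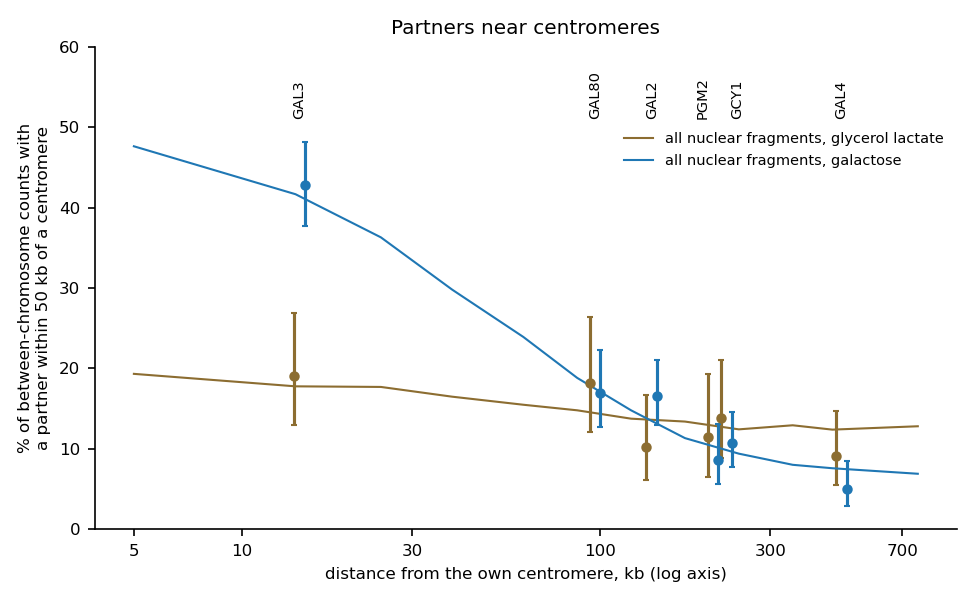
Share of between-chromosome counts whose partner lies within 50 kb of a centromere, against the distance of the gene from its own centromere (log axis). Lines join all nuclear fragments in 12 distance classes and points are the 6 genes with Wilson 95% intervals, set slightly apart by library so that they can be seen. In galactose the line falls from 47.6% to 6.89%, and in glycerol lactate from 19.3% to 12.8%. The GAL3 points (42.9% and 19.0%) lie close to them.

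Single partners were rarely seen more than once. At a cut-off of 3 counts, which the methods derive for pairs with mitochondrial DNA and which was carried over here to nuclear pairs, glycerol lactate held 1 between-chromosome pair and galactose 4, and each of these 5 had 0 counts in the other library. The glycerol lactate pair joined GAL80 (172369 to 172519) to a fragment of YKR011C on chromosome XI (461581 to 462556). In galactose GAL2 (291244 to 291504) met RPS3, a ribosomal protein gene, on chromosome XIV (302320 to 302785). GAL3 met TEC1, a transcription factor gene of filamentous growth (408813 to 409497), and MAK5, which encodes a helicase of ribosome assembly (528411 to 529580), both on chromosome II. The fragment upstream of GCY1 (550761 to 551006) met CYC3, the cytochrome c heme lyase gene, on chromosome I (69350 to 70138). Each had exactly 3 counts. Of all between-chromosome pairs, 90.7% in glycerol lactate and 93.9% in galactose held a single count. The share of them that reaches the cut-off was not computed, so the numbers of 1 and 4 pairs have no background here. Of the 659 pairs between chromosomes in glycerol lactate and the 1593 in galactose, 8 occurred in both (1.21% and 0.502%). Over all nuclear pairs these shares were 1.51% and 0.735%.

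Contacts among the 6 genes were at the limit of detection. Their fragments form 368 possible pairs. Glycerol lactate had 0 counts among them, and a count of 0 allows up to 3, while the genes' own between-chromosome totals gave an expected number of 0.615. Galactose had 1 count, between GAL3 (463462 to 463839) and GCY1 (551007 to 551811), where 1.64 were expected. GAL80 and PGM2, on the same chromosome, had 0 counts in either library. Their 16 possible pairs are among the 368 but are left out of the expected numbers, which cover pairs between chromosomes only.

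With the GAL1, GAL10 and GAL7 cluster the members had 1 count in glycerol lactate (GCY1 with GAL10, 0.520 expected) and 2 in galactose (GAL3 with a fragment of GAL7 and GAL10, and GAL4 with GAL1, 1.56 expected). With the 5 glucose repression genes they had 2 and 6 counts (2.05 and 4.19 expected). Of these 6, 5 came from GAL3 and 1 from GAL2, and 3 were with fragments of TUP1, which encodes a corepressor. Each was a single count, and fragments that name a gene only as a neighbour are included. With PGM1 and UGP1 they had 0 and 1 counts, and with MTH1, PCL10 and FUR4 1 and 1.

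The table of all mapped sequences held further pairs between PGM2 and its paralog PGM1 on chromosome XI. They had 72 counts in glycerol lactate and 55 in galactose, over 4 pairs in each, and 0 in the uniquely mapped tables. The strongest joined PGM2 (476871 to 478368) to PGM1 (203517 to 203920) with 24 and 32 counts. Likewise GAL2 and the 17 named HXT genes, which encode related hexose transporters, had 74 counts in glycerol lactate and 50 in galactose against 4 and 2 with unique mapping. GAL3 and its paralog GAL1 had 0 counts in either table. Reads of near-identical sequence can be placed on either paralog, so true contacts between paralogs cannot be told apart from misplaced reads. With all mapped sequences the between-chromosome totals were 221 and 349 counts for PGM2 and 240 and 429 for GAL2.

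Mitochondrial contacts of the members did not differ beyond counting error between the libraries when taken as shares. The members held 185 of 85732 Mito-nDNA counts in glycerol lactate and 65 of 26756 in galactose, a ratio of 1.13 (0.835 to 1.5). GCY1 had the highest ratio with 35 and 19 counts (1.74, 0.940 to 3.13), and PGM2 the lowest with 36 and 6 (0.534, 0.184 to 1.28). GAL80 had 23 and 11 counts (1.53), GAL2 35 and 13 (1.19), GAL4 25 and 8 (1.03) and GAL3 31 and 8 (0.827), all with intervals that include 1. None of the 6 differed by 2-fold, whereas 14.7% of the 3383 genes with enough counts did (5.35% higher and 9.31% lower). Some intervals left out 1 in other settings. PGM2 had 0.448 (0.183 to 0.961) with all mapped sequences, where the median over the named genes was 0.841. Without fragments under 100 bp it had 27 and 2 counts (0.249, 0.0287 to 0.992). GCY1 had 32 and 19 counts (1.90, 1.02 to 3.46) without its strongest pair.

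Pairs with mitochondrial DNA at 3 counts were seen in glycerol lactate alone, where there were 4. GAL2 (291505 to 292750) and GAL4 (76906 to 80307) each joined the mitochondrial fragment 17290 to 24261, which holds much of COX1, the gene of a cytochrome c oxidase subunit, and several intron genes. GAL80 (172615 to 173364) joined 50136 to 50520, a fragment beside VAR1, the mitochondrial ribosomal protein gene, and the fragment upstream of GCY1 (550761 to 551006) joined a part of COB, the cytochrome b gene, at 43130 to 43983. All 4 had 0 counts in galactose, where the whole set had 65 Mito-nDNA counts. Of the members' 162 mitochondrial pairs in glycerol lactate and 61 in galactose, 6 occurred in both (3.70% and 9.84%). Over all nuclear fragments these shares were 2.997% and 8.84%. At the cut-off of 3 the paper lists fewer Mito-nDNA pairs in galactose than in glycerol lactate. The paper's supplementary methods use the number of all such pairs at the cut-off for a false positive rate. No share of the 74041 and 25089 Mito-nDNA pairs was computed from it here. The 4 and 0 pairs, of 162 and 61, are therefore given without that background and are not read as particular to the members. COX1 fragments took 14 of the 185 counts in glycerol lactate (7.57%, Wilson interval 4.56 to 12.3%) and 5 of 65 in galactose (7.69%, 3.33 to 16.8%), against 9.13% and 13.0% over all nuclear fragments.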

How the data were processed

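The deposited values are counts of sequences per pair of MspI fragments. The authors placed paired-end sequences on the S288C reference with SOAP, without mismatches, and assembled the pairs with Topography 1.19, combining 2 biological replicates per library. Whether duplicate sequences were removed is not given in the sources used here. Tables of uniquely mapped sequences (used for all values unless stated) and of all mapped sequences were read. Each pair stands in both orders (0 lines lacked an equal mirror) and was taken once. Library totals stand in the report, and counting error limits the precision.

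Members, gene lists and comparisons were chosen with earlier results of these data known. The text names all 6 members, up to 3 of the strongest pairs per member, kind and library (between-chromosome and mitochondrial pairs from 3 counts), and 13 other pathway genes. Single sites, tested fragments and pairs with paralogs were named after their values were seen. Genes, junctions and fragments needed 20 counts over both libraries. Ratios have exact conditional 95% intervals. Fragments of like length came from all other nuclear fragments outside the ribosomal DNA. Expected contacts were products of between-chromosome totals of fragments, divided by the total of the ends on other chromosomes. Fisher's exact test (2-sided) was run on simulated independent Poisson counts. These hold no extra variation between libraries and no ratio that moves with fragment length. The simulation therefore does not show that the adjusted p-values hold for the real counts. Locus tags were matched to symbols with a RefSeq gene table. Calculations used scipy 1.17.1, pandas 2.3.3 and numpy 2.4.6 under Python 3.11.15, and figures matplotlib 3.10.9. Alternatives covered the mapping, the denominators, the fragment rule, the thresholds and the removal of single pairs or short fragments.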

Additional observations from a re-analysis of the deposited data

Results flagged for a closer look

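Signal was present outside the 4 kinds of count compared above, over the limit of 3 that a count of 0 allows. Member fragments had 12 counts with the 2-micron plasmid in glycerol lactate and 31 in galactose, a ratio of 1.23 (0.613 to 2.62) as a share of all nuclear counts with the plasmid. GAL80 contributed 3 and 8 of these, and GAL3 5 and 4. Member fragments paired with themselves, as when both ends of 1 fragment are ligated, had 6 counts in glycerol lactate and 50 in galactose. Over all nuclear fragments such pairs held 1643 and 21728 counts, so that the members' share gave a ratio of 0.630 (0.270 to 1.80).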

How the results depend on the processing

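As shares of all library counts, the members' ratios were 0.674 for adjacent, 3.36 for other within-chromosome, 3.15 for between-chromosome and 0.484 for mitochondrial counts. As shares of all counts without adjacent pairs they were 0.376, 1.88, 1.76 and 0.270, and 19 member fragments then passed Fisher's exact test, all upwards, against 45.6% of all fragments. With all mapped sequences the within- and between-chromosome ratios were 2.55 and 1.74. Over all named genes the median within-chromosome ratio was 1.96 as reported and 5.65, 3.15 and 3.75 in these 3, and the median between-chromosome ratio 0.928 and 2.51, 1.40 and 1.42. Distinct pairs in place of counts gave 0.939 for within-chromosome pairs, on the other side of 1. For adjacent pairs they gave 1.00 for the members together and for each of the 6 genes. All 36 junctions were seen in both libraries, so this setting could give no other value and says nothing about the adjacent ratios. The within-chromosome ratio (1.17) was 1.32 with overlapping fragments only, 1.35 without the strongest pair, 1.03 without fragments under 100 bp, 1.00 over 10 kb, and 1.02 without pairs across 1 short fragment, a setting chosen after seeing the data. Of the 24 ratios, 1 passed 2-fold. At 1.5-fold 7 passed, with all mapped sequences 7 and with overlapping fragments only 3. The shares of all named genes passing in these settings were not computed, so these numbers have no background here. The median within-chromosome ratio of all named genes (1.96) is itself beyond 1.5-fold, and with all mapped sequences (3.75) it is beyond 2-fold. Pairs at the cut-off of 3 numbered 5 in glycerol lactate and 4 in galactose. A cut-off of 2 gave 90 and 77, one of 4 gave 0 and 0, and all mapped sequences gave 34 and 25. The members held 659 and 1593 between-chromosome pairs and 162 and 61 mitochondrial pairs. Over all nuclear fragments 90.7% and 93.9% of between-chromosome pairs and 88.0% and 94.5% of mitochondrial pairs held a single count, below a cut-off of 2. For the other settings no share over all pairs was computed. Single genes whose interval left out 1 also turned. GAL4 between chromosomes turned from 0.797 to 1.46, 2.16 and 1.20 with all mapped sequences and with both scalings. GCY1 within its chromosome turned from 0.641 to 1.41, 1.84 and 1.03 under the same settings and to 1.02 with distinct pairs. GAL2 within its chromosome was 0.789 with distinct pairs, 0.856 over 10 kb and 0.753 without pairs across 1 short fragment, and GAL3 0.850 and 0.963 in the first 2 of these. Without fragments under 100 bp the intervals of the adjacent ratios of all members and of GAL2 included 1. The 2 scalings multiply every ratio of a kind by the same factor, which is set by the totals of the libraries. The cause of the remaining changes was not tested. The other 36 of 63 values for the members together, and 106 of 186 for single members, lay within the counting interval, within the quartiles (for places among fragments of like length) or within 1.5 times of the value reported, some of them on the other side of 1 where that interval includes 1. No paired analysis was possible because each condition has 1 library. At this depth nearly all between-chromosome pairs hold 1 or 2 counts, so a contact with 0 counts in a library is not shown to be absent there.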
